A study of Mus musculus with 4 samples.

Results

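The Hoxd cluster of the mouse is a row of 9 genes on chromosome 2, named Hoxd13, Hoxd12, Hoxd11, Hoxd10, Hoxd9, Hoxd8, Hoxd4, Hoxd3 and Hoxd1 from its 5′ end to its 3′ end. All 9 were taken by gene symbol from the deposited gene tables, which hold 24453 genes. Their RNA was measured by RNA-seq in the surface epithelium of the tongue of mouse embryos at embryonic day 16. Sorting kept cells with EpCAM, a surface protein by which epithelial cells adhere, from tongues from which the posterior part with the circumvallate papilla had been cut away. There were 2 libraries labelled Ring1a/b 2KO, with the genotype Ring1a-/- Ring1b fl/fl K14-Cre+, and 2 control libraries, whose label gives no alleles, so it is not known here whether the controls carry any of them. In the 2KO embryos the Krt14 promoter drives Cre, so the floxed Ring1b allele is a target for recombination in Krt14-expressing cells, while the Ring1a mutation is in every cell.

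Hox genes encode homeodomain transcription factors that give cells their position along the body axis, and within a cluster their order on the chromosome follows their order of expression. RING1A and RING1B, encoded by Ring1 and Rnf2, are the alternative catalytic subunits of Polycomb repressive complex 1, which adds ubiquitin to histone H2A and keeps Hox clusters silent in cells where they are not used. The 5′ Hoxd genes are best known for patterning the limb, the digits and the genital bud, the 3′ genes for the hindbrain and the vertebrae of the neck, and the first pharyngeal arch, which contributes to the front of the tongue, is classically described as free of Hox expression.

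Total counts were 18039767 and 20545262 in the 2KO libraries, against 20624055 and 16256569 in control, and the ribosomal transcript Rn45s took 22.9% and 20.2% of the 2KO counts, against 16.7% and 15.3% of the control counts. Ring1 was at 16.8 and 15.0 CPM (read counts scaled to library size with TMM factors) in 2KO, against 9.02 and 8.57 CPM in control (log2 fold change 0.85, SE 0.312, edgeR quasi-likelihood adjusted p = 0.101). Rnf2 was at 62.9 and 62.4 CPM in 2KO, against 34.0 and 51.3 CPM in control (0.56, SE 0.221, adjusted p = 0.126), and was called higher without control replicate 2 (0.89, adjusted p = 0.00853). Neither gene was lower in 2KO, but a count over a whole gene cannot reveal that an exon is missing, so these values do not check the labels and 2KO below means the libraries labelled so. The 8 epithelial markers, Epcam and Krt5 among them, summed to 11096 and 11934 CPM in 2KO, against 15746 and 12860 CPM in control, with 0 called higher and 2 lower, Krt5 and the Cre driver Krt14 (773 ± 77.2 CPM in 2KO, 1277 ± 340.2 CPM in control, SD, n = 2 each, as for every mean below, adjusted p = 0.0248). Mesenchyme markers summed to 416 and 398 CPM in 2KO, against 320 and 394 CPM in control (0 of 10 tested called). Single genes differed: Twist1 was at 1.93 and 1.98 CPM in 2KO, against 0.294 and 0.293 CPM in control. Col3a1 went the other way, at 23.3 and 28.9 CPM in 2KO, against 40.2 and 39.1 CPM in control. Endothelial markers summed to 47.6 and 69.4 CPM in 2KO, against 33.1 and 23.8 CPM in control (0 of 8 called). Muscle markers summed to 60.7 and 77.5 CPM in 2KO, against 63.4 and 379 CPM in control (0 of 7 called), where control replicate 2 stood apart. Median log2 fold changes were -0.09 for epithelial, 0.32 for mesenchyme, 1.27 for endothelial and -1.64 for muscle markers, beside 0.00653 over all genes tested. Of all genes tested, 7.00% were called higher and 4.92% lower. Neural and Schwann cell markers summed to 43.4 and 38.2 CPM in 2KO, against 45.7 and 50.0 CPM in control (of 7 tested, Elavl3 higher and Tubb3 lower). Immune markers summed to 52.8 and 43.8 CPM in 2KO, against 24.9 and 16.8 CPM in control (of 3 tested, Cd68 higher). Most of the immune sum was Cd68, at 47.2 and 39.0 CPM in 2KO, against 21.3 and 11.9 CPM in control. The other tested immune markers moved in opposite directions and were not called. Csf1r was at 5.05 and 3.86 CPM in 2KO, against 2.01 and 2.88 CPM in control. Lyz2 had 0 and 3 counts in 2KO, against 32 and 18 in control. Of the blood markers Alas2 was at 3.80 and 2.37 CPM in 2KO, against 7.06 and 7.33 CPM in control, and not called (adjusted p = 0.155), and the globin genes Hba-a1 and Hbb-bs had 0 counts in every library although their deposited FPKM was not 0. Hba-a1 was at 13.7 and 39.3 FPKM in 2KO, against 14.6 and 39.1 FPKM in control, and Hbb-bs at 16.7 and 40.1 FPKM in 2KO, against 28.5 and 86.2 FPKM in control. Globin RNA was thus present, and the counts do not measure it. The part of these cell types in the Hoxd values was not tested, and in bulk RNA more cells expressing a gene and more RNA per cell cannot be told apart. Nothing in the labels ties each library to its own embryo, so every p-value refers to the spread among these 4 libraries, and that spread may be technical only.

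The 9 genes lie on the + strand within 96.8 kb, at chr2:74668310-74765142 of GRCm38 (mm10) in the GENCODE annotation. Hoxd13 opens the cluster at chr2:74668310-74671599, Hoxd8 lies near its middle at chr2:74704615-74707933, and Hoxd1 closes it at chr2:74762980-74765142. Hoxd3 (chr2:74711927-74748442) and Hoxd4 (chr2:74711929-74729160) are annotated from almost the same base, and 62.8% of the exon bases of Hoxd3 and 52.3% of those of Hoxd4 are shared with each other or with other annotated genes. The same share was 10.8% for Hoxd11 and 5.73% for Hoxd10, both with the transcript Gm28309, and 0% for the other 5 genes. Because it is not known here whether reads were assigned by strand or how overlaps were handled, the values of Hoxd3 and Hoxd4 are uncertain to that extent.

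The stretches before the start sites of 4 of these genes are shown. They belong to the genes with the highest deposited FPKM in 2KO (Hoxd13 and Hoxd8) and the lowest (Hoxd4 and Hoxd12). Each is the 250 bases upstream of the RefSeq start in GRCm38.p6, 5′ to 3′. Every CpG dinucleotide, the site of DNA methylation and a feature of many Polycomb target promoters, is in capitals. The RefSeq start of Hoxd4 lies inside the GENCODE span given above, so the annotations differ there.
Hoxd13 (chr2:74667975-74668224, + strand): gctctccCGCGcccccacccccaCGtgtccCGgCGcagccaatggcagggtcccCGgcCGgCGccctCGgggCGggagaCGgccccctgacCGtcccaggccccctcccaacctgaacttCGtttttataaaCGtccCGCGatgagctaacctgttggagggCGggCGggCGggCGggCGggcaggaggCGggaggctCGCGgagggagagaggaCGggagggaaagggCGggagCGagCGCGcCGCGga
Hoxd8 (chr2:74704365-74704614, + strand): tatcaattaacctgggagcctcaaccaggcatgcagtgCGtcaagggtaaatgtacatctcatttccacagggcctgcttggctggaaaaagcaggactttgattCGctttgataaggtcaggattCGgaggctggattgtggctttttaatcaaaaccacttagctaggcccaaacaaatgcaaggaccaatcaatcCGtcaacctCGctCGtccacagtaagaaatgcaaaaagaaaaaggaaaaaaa
Hoxd4 (chr2:74721728-74721977, + strand): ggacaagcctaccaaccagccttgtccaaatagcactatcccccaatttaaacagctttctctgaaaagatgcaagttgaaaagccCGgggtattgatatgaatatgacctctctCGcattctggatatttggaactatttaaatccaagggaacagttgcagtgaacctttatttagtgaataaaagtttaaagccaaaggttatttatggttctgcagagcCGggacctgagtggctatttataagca
Hoxd12 (chr2:74674763-74675012, + strand): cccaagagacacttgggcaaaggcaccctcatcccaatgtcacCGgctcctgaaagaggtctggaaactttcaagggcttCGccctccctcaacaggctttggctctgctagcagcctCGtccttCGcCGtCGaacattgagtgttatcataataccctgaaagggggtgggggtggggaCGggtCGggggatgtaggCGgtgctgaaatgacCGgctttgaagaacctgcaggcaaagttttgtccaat
The Hoxd13 stretch held 31 CpG dinucleotides, more than 94.8% of the 32851 RefSeq windows of this length. The Hoxd8 stretch held 6, which is the median of all windows, that of Hoxd4 held 3 and that of Hoxd12 held 10.

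Read counts of all 9 Hoxd genes were higher in both 2KO libraries than in both control libraries, a pattern shown by 26.8% of the 19211 genes with a count. The whole cluster gave 1337 and 1836 counts in the 2KO libraries, against 9 and 1 counts in control. In CPM the sum was 75.8 and 90.8 in 2KO, against 0.441 and 0.0587 in control, or 83.3 ± 10.6 in 2KO and 0.250 ± 0.270 in control. With 2 libraries against 2, the exact two-sided permutation test of the summed level cannot go below p = 0.333, the value it gave. Control RNA was close to the limit of detection: 4 of the 9 genes had 0 counts in both control libraries, 5 had a count in control replicate 1 and 1, Hoxd13, had a count in control replicate 2. A count of 0 over both control libraries allows up to 3 counts, or 0.0801 CPM. Reads came from amplified RNA without molecular identifiers, so such limits and the intervals below cover counting error only.

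**Figure D1:**
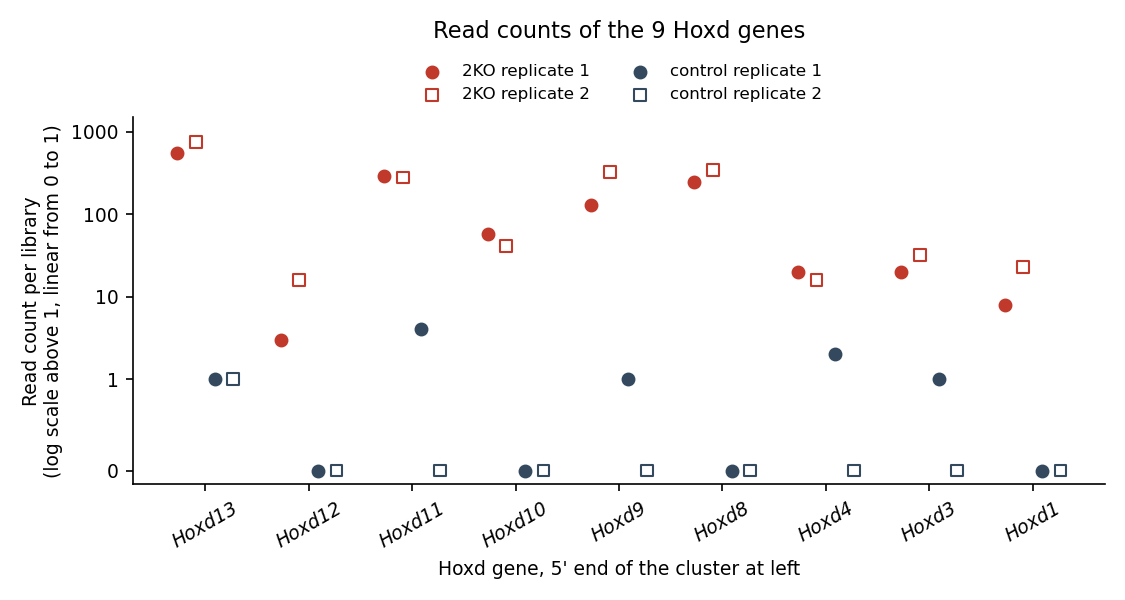
Read count per library (log scale above 1, linear from 0 to 1) of the 9 Hoxd genes in cluster order, with red symbols for the 2 libraries labelled 2KO and dark blue symbols for the 2 control libraries. All 9 genes lie higher in 2KO, from 3 to 756 counts, than in control, where no gene exceeds 4 counts.

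Of the 9 genes, 7 passed the filter on low counts and 5 of these were called higher in 2KO (edgeR quasi-likelihood test, adjusted p under 0.05), where 7.00% of the 15336 genes tested were called higher. All 7 passed through the 2KO libraries alone, so they had to differ, and the number called among them carries no weight of its own. The called genes were Hoxd13, Hoxd11, Hoxd10, Hoxd9 and Hoxd8, the run at the 5′ side of the cluster except for Hoxd12. Hoxd3 and Hoxd4 were tested and not called, and Hoxd12 and Hoxd1 had too few counts to be tested.

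Hoxd13, which shapes the digits and the genital bud, had 559 and 756 counts in 2KO, against 1 and 1 in control. Its level was 34.6 ± 4.03 CPM in 2KO and 0.0538 ± 0.00683 CPM in control (adjusted p = 1.35e-05), and the ratio of the counts scaled for depth was 650, with a 95% exact counting interval of 180 to 5377. Among the 7820 genes with at most 4 counts over both control libraries, the highest number any Hoxd gene had there, Hoxd13 ranked 1 by its mean CPM in 2KO. These 7820 include genes without a count in any library. Because the cutoff was taken from the Hoxd genes themselves, all 9 are in this set and the rank depends on it. Trank1, with 11 and 0 counts in control, was left out by the cutoff and was at 35.2 ± 1.28 CPM in 2KO. Both 2KO libraries thus held many reads of a gene that was all but silent in both controls.

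Hoxd12, the next gene and a limb gene as well, had 3 and 16 counts in 2KO, against 0 and 0 in control. Its level was 0.170 and 0.792 CPM in 2KO, at least 6.27-fold higher than control against the limit of 3 counts over the group. The 2KO libraries differed 4.65-fold from each other for this gene, the widest gap of the 9. It sits between Hoxd13 and Hoxd11, which each had at least 280 counts in both 2KO libraries.

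Hoxd11, which with its paralog Hoxa11 forms the forearm, had 295 and 280 counts in 2KO, against 4 and 0 in control, or 15.3 ± 2.03 CPM in 2KO and 0.0980 ± 0.139 CPM in control. The log2 fold change was 7.10 (SE 0.756, adjusted p = 0.000276) and the depth-scaled ratio 142 (counting interval 55.2 to 524). All 4 of its control reads lay in control replicate 1, and without control replicate 2 the log2 fold change was 6.25. Hoxd10, which acts in the motor neurons of the hindlimb, had 58 and 41 counts in 2KO, against 0 and 0 in control, and was at least 32.6-fold higher (2.66 ± 0.891 CPM in 2KO, adjusted p = 0.0101).

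Hoxd9, a gene of the forelimb and, with its paralogs, of the mammary gland, had 130 and 328 counts in 2KO, against 1 and 0 in control. It averaged 11.8 ± 6.26 CPM in 2KO and 0.0245 ± 0.0347 CPM in control, and its adjusted p was 0.000315. The depth-scaled ratio was 453, between 80.9 and 17936 by counting error, and rests on the 1 read in control replicate 1. Hoxd8, a gene of the trunk, had 244 and 344 counts in 2KO, against 0 and 0 in control. At 15.4 ± 2.25 CPM in 2KO it was at least 194-fold higher than control (adjusted p = 8.73e-05), the highest lower bound among the 4 Hoxd genes without a control read. Both groups were well apart for each of these 5 called genes.

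The genes at the 3′ end had few reads. Hoxd4, which acts in the hindbrain and the neck vertebrae, had 20 and 16 counts in 2KO, against 2 and 0 in control, a ratio of 17.8 (counting interval 4.58 to 153, adjusted p = 0.123). Hoxd3, which shapes the first neck vertebra, had 20 and 32 counts in 2KO, against 1 and 0 in control, a ratio of 51.4 (8.83 to 2071, adjusted p = 0.0502). Neither passed the threshold, although Hoxd3 passed with DESeq2 (adjusted p = 0.0403), without the filter on low counts (0.0395), with a filter at 1 CPM (0.0332) and without the abundant RNAs Rn45s, Malat1 and Lars2 (0.0493); over all alternatives its adjusted p ran from 0.0332 to 0.284. Hoxd1, which in the mouse acts in pain-sensing neurons, had 8 and 23 counts in 2KO, against 0 and 0 in control, at least 10.2-fold higher. When no filter was applied, Hoxd1 and Hoxd12 had adjusted p-values of 0.0759 and 0.199.

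The 6 genes at the 5′ side, Hoxd8 to Hoxd13, made up 96.4% and 96.1% of the Hoxd counts of the 2KO libraries. They summed to 80.2 ± 10.1 CPM in 2KO and 0.176 ± 0.166 CPM in control. Hoxd1, Hoxd3 and Hoxd4 together summed to 3.12 ± 0.559 CPM in 2KO and 0.0735 ± 0.104 CPM in control. Of the 9 control reads in control replicate 1, 3 were of these 3 genes.

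Among all genes nearly silent in control, 98 of the 7820 with at most 4 control counts (1.25%) reached 1 CPM or more in both 2KO libraries. The 7820 also hold genes without a count in any library, which could not reach 1 CPM. The share among genes with a count is thus higher than 1.25%. The 98 include 6 of the 9 Hoxd genes, namely Hoxd13, Hoxd11, Hoxd10, Hoxd9, Hoxd8 and Hoxd3. The limit of 4 control counts was taken from the Hoxd genes, so this number and the ranks below are description only. By mean CPM in 2KO, Hoxd8 ranked 6 among the 7820 genes, Hoxd11 ranked 7, Hoxd9 ranked 9 and Hoxd10 ranked 47. Hoxd3 followed at rank 114, Hoxd4 at 181, Hoxd1 at 232 and Hoxd12 at 410. Of the 7256 genes with at most 4 counts over both 2KO libraries, again with genes without any count, 14 reached 1 CPM or more in both control libraries.

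Levels of different genes can be set side by side only per length, for which the deposited FPKM values (fragments per kilobase of transcript, scaled to library depth) were used. In 2KO, Hoxd13 was the highest at 13.7 and 15.9 FPKM, followed by Hoxd8 at 8.37 and 9.85 FPKM and Hoxd9 at 4.90 and 9.59 FPKM. Hoxd11 stood at 4.17 and 3.30 FPKM, and Hoxd10 at 2.03 and 1.19 FPKM. By FPKM the level therefore did not change steadily along the chromosome. Hoxd13 and the pair of Hoxd9 and Hoxd8 were high, with lower values between them.

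Below 1 FPKM lay Hoxd1 at 0.364 and 0.879 FPKM, Hoxd3 at 0.334 and 0.296 FPKM, Hoxd4 at 0.204 and 0.334 FPKM, and Hoxd12 at 0.0738 and 0.234 FPKM, all in 2KO. In control replicate 1, the 5 Hoxd genes with a count had between 0.0204 FPKM (Hoxd13) and 0.0506 FPKM (Hoxd11), and the other 4 were listed at 0. In control replicate 2 all 9 genes were listed at 0. Neighbours in the order of 2KO levels were compared by the FPKM ranges of the 2 libraries. The ranges overlapped for Hoxd8 and Hoxd9, for Hoxd3 and Hoxd4 and for Hoxd4 and Hoxd12. They did not overlap for the other pairs.

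**Figure D2:**
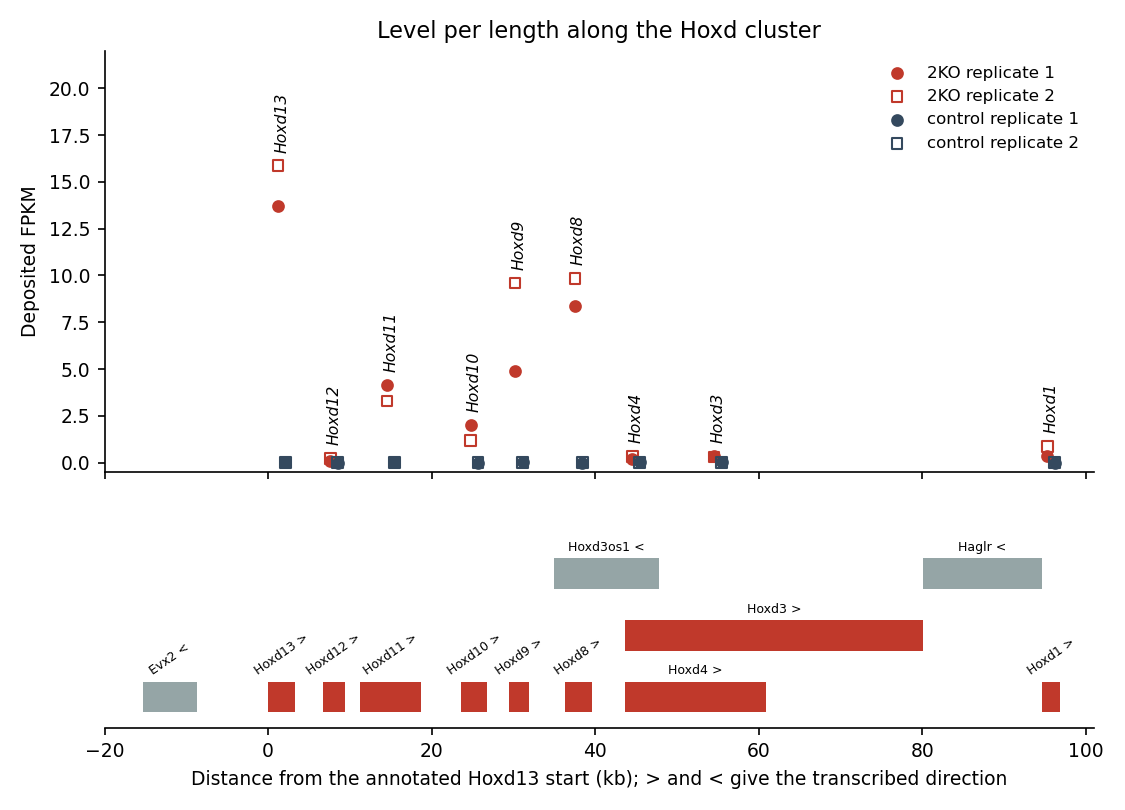
Deposited FPKM of each Hoxd gene in each library (top, red for 2KO and dark blue for control, with control points drawn slightly to the right) over a map of the cluster (bottom, red bars for Hoxd genes, grey bars for neighbouring genes) against distance from the annotated Hoxd13 start in kb. Hoxd13 is highest at 13.7 and 15.9 FPKM in 2KO, and control points lie at 0.0506 FPKM or less.

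Dividing the CPM by the annotated exon length gave the same order of 2KO means, except for Hoxd3 and Hoxd4. These changed places, at 0.324 and 0.327 CPM per kb in 2KO. Single libraries did not all keep this order. Hoxd9 was at 3.45 and 7.60 CPM per kb in 2KO and Hoxd11 at 3.97 and 3.29, so Hoxd11 was the higher in 2KO replicate 1. Dividing instead by the exon bases shared with no other gene put Hoxd3 (mean 0.873) and Hoxd4 (0.685) above Hoxd1 (0.427) in 2KO. The order of these 3 genes thus depends on the length used. Hoxd13 was 1.62 times the level of Hoxd8 in 2KO by FPKM and 2.47 times by CPM per kb of exon. For Hoxd3 and Hoxd4 the deposited columns also disagree on which 2KO library is higher: 2KO replicate 2 stood at 1.40 times replicate 1 for Hoxd3 by CPM and at 0.887 times by FPKM, and for Hoxd4 at 0.698 times by CPM and 1.64 times by FPKM. For the other 7 genes both columns had the same library higher.

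The make-up of the Hoxd reads was similar in the 2KO libraries for some genes and not for others. Hoxd13 took 41.8% of the Hoxd counts in 2KO replicate 1 (95% Wilson interval 39.2 to 44.5) and 41.2% in 2KO replicate 2 (38.9 to 43.4). Hoxd8 took 18.2% (16.3 to 20.4) and 18.7% (17.0 to 20.6). Both shares thus agree within counting error.

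In contrast, Hoxd9 took 9.72% of the Hoxd counts in 2KO replicate 1 (8.25 to 11.4) and 17.9% in 2KO replicate 2 (16.2 to 19.7). Hoxd11 took 22.1% (19.9 to 24.4) and 15.3% (13.7 to 17.0), and Hoxd10 took 4.34% (3.37 to 5.57) and 2.23% (1.65 to 3.02). The intervals do not meet for these 3 genes, so the spread between libraries exceeded counting error, with Hoxd9 higher and Hoxd11 and Hoxd10 lower in replicate 2. Hoxd12 took 0.224% (0.0763 to 0.658) and 0.871% (0.537 to 1.41), which overlap. With 1 pair of libraries, this spread has no further replicate.

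**Figure D3:**
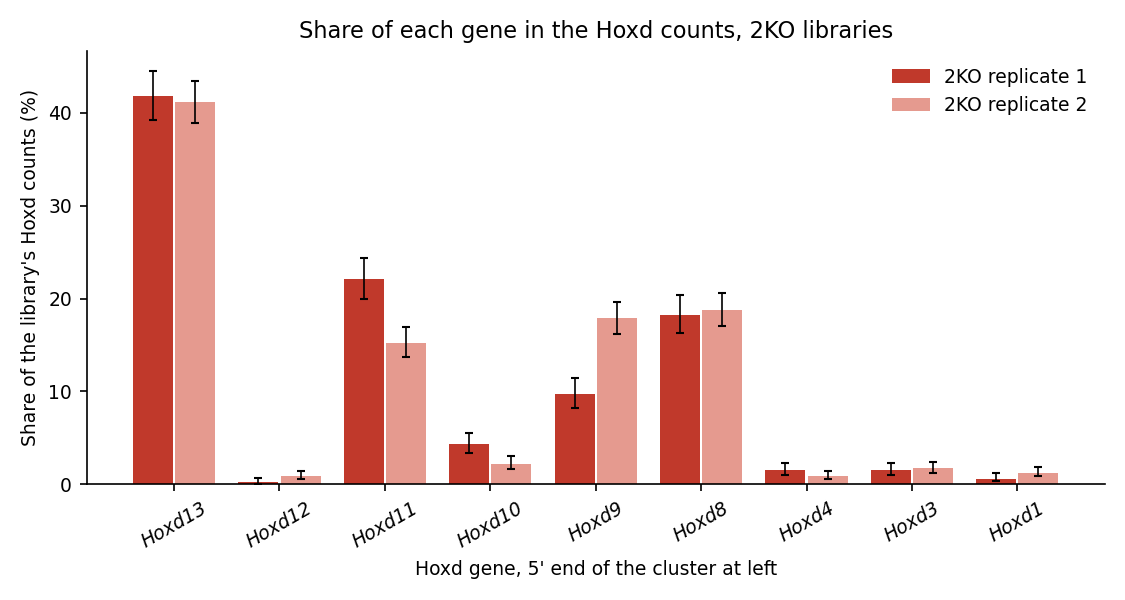
Share of each Hoxd gene in the Hoxd counts of 2KO replicate 1 (dark bars) and 2KO replicate 2 (light bars), in percent, with 95% Wilson intervals as error bars. Hoxd13 holds 41.8% and 41.2%, while Hoxd9 holds 9.72% and 17.9%.

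Of the 10 other annotated genes inside the cluster, 3 have values (Haglr, Hoxd3os1 and Mir10b) and 7 were not analysed here. Evx2, a homeobox gene that shares limb enhancers with the 5′ Hoxd genes and starts 8.75 kb from Hoxd13, had 2 and 2 counts in 2KO, against 0 and 0 in control. Haglr, a long noncoding RNA on the opposite strand between Hoxd3 and Hoxd1, had 3 and 1 counts in 2KO, against 2 and 1 in control. Hoxd3os1, an antisense transcript that shares exon bases with Hoxd3 and Hoxd4, had 7 and 4 counts in 2KO, against 0 and 0 in control, and Mir10b, a microRNA gene inside the cluster, had 0 in every library. None of these 4 had enough counts to be tested.

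The nearest tested gene on the Evx2 side was Lnpk, which encodes a protein of the endoplasmic reticulum. It had 851 and 975 counts in 2KO, against 1118 and 876 in control, with a log2 fold change of -0.14 (SE 0.184, adjusted p = 0.682) by counts but of 0.0428 on the log2(FPKM + 1) scale. On the far side Mtx2, which encodes an outer mitochondrial membrane protein, had 542 and 583 counts in 2KO, against 801 and 788 in control (-0.52, SE 0.211, adjusted p = 0.134). Among the 12 annotated genes with a row within 1 Mb on either side, 7 were tested, 0 were called higher and 1 was called lower, where 7.00% of all genes tested were called higher and 4.92% lower. The median log2 fold change of the 7 was -0.18, beside 0.00653 over all genes tested. The gene called lower was Atp5g3, a subunit of the mitochondrial ATP synthase, at 79.6 ± 4.03 CPM in 2KO and 145.6 ± 38.3 CPM in control (adjusted p = 0.0173), a call lost without control replicate 2 (adjusted p = 0.0508) and on the FPKM scale. Haglr, Hoxd3os1, Mir10b and Evx2 were thus at 7 counts or fewer in each 2KO library. Hoxd12, at 3 and 16 counts, and Hoxd1, at 8 and 23, lay in or near that range. Hoxd13, Hoxd11, Hoxd9 and Hoxd8 had at least 130, and the other Hoxd genes lay between. These are raw counts, not scaled for the unlike lengths of the genes.

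Upstream stretches of the 9 genes were then compared with those of all genes, with 10 windows because Hoxd11 has 2 RefSeq starts. The Hoxd windows held a median of 12.5 CpG dinucleotides, against 6 over all windows, and 4 of the 10 were CpG-rich (observed over expected above 0.6 and GC content above 50%), against 30.8% of all windows. The 4 were those of Hoxd13, Hoxd10, Hoxd1 and the second Hoxd11 start. CpG number did not order the levels: Hoxd1 had 24 CpG dinucleotides and 0.622 ± 0.364 FPKM in 2KO, while Hoxd8 had 6 and 9.11 ± 1.05 FPKM in 2KO. Hoxd10 had 20 and 1.61 ± 0.597 FPKM in 2KO, and Hoxd9 had 13 and 7.24 ± 3.32 FPKM in 2KO.

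**Figure D4:**
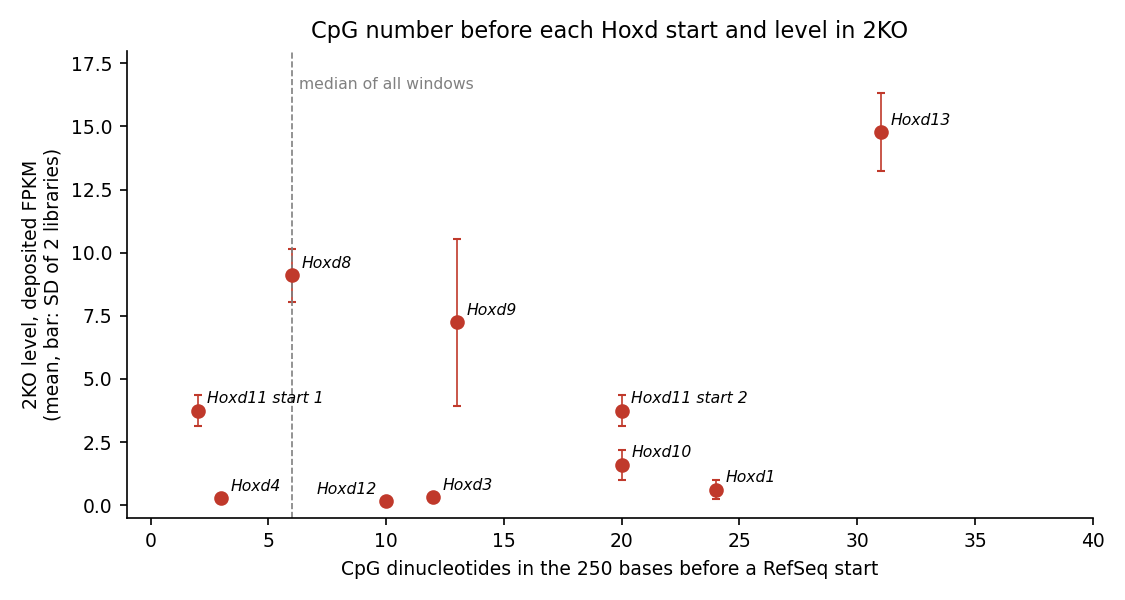
Number of CpG dinucleotides in the 250 bases before each RefSeq start of a Hoxd gene (horizontal axis) against its deposited FPKM in 2KO (vertical axis, mean with SD of 2 libraries), with the median of all windows as a dashed line. Hoxd13 is highest on both axes, at 31 CpG dinucleotides and 14.8 FPKM, while Hoxd1 has 24 CpG dinucleotides at 0.622 FPKM.

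The same windows were searched on both strands for 3 promoter motifs, with overlapping matches counted. The CCAAT box (CCAAT) was present in 7 of the 10 Hoxd windows, against 33.8% of all windows. The TATA box (TATAAA) was present in 2, those of Hoxd13 and Hoxd4, against 12.4% of all windows, and the GC box (GGGCGG) in 4, against 32.7%. The Hoxd13 stretch printed above held 7 GC box matches, most of them in the run of ggCG repeats. These matches describe the letters of the windows and no binding was measured.

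The other Hox clusters were read from the same test. Of the other 30 Hox genes 24 were tested, 14 were called higher in 2KO, 1 lower and 9 not called, with a median log2 fold change of 6.74, or 5.03 with genes of 0 to 3 control counts at their bound or raw ratio. Over all genes tested, 7.00% were called higher and 4.92% lower. Of the 24, 16 passed the filter on low counts only through the 2KO libraries and so had to differ, and the number called and the median carry no weight for them. All 14 genes called higher were among these 16. Hoxa genes summed to 50.3 ± 17.6 CPM in 2KO and 2.35 ± 2.98 CPM in control, Hoxb genes to 26.4 ± 7.66 CPM in 2KO and 3.81 ± 3.24 CPM in control, and Hoxc genes to 48.0 ± 1.69 CPM in 2KO and 20.4 ± 7.91 CPM in control. The Hoxd sum of 83.3 ± 10.6 CPM in 2KO lay above the other 3 sums, and its control sum of 0.250 ± 0.270 CPM was the lowest mean of the 4, although the control range of the Hoxa sum, 0.245 to 4.46 CPM, overlapped that of Hoxd, 0.0587 to 0.441 CPM. The difference between clusters was not tested.

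Per length, the highest gene of each cluster in 2KO was Hoxd13 at 14.8 ± 1.53 FPKM, Hoxa7 at 11.4 ± 4.38 FPKM, Hoxc10 at 7.04 ± 1.31 FPKM and Hoxb9 at 2.75 ± 1.36 FPKM. The range of Hoxa7, 8.33 to 14.5 FPKM, overlapped that of Hoxd13. Hoxa7 and Hoxc10, both genes of the trunk, were called higher as well (adjusted p = 7.40e-05 and 0.000722), as was Hoxb9 (0.00197).

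The paralogs of Hoxd13, singled out after their values were seen, went different ways. Hoxa13, which works with Hoxd13 in the digits, had 59 and 76 counts in 2KO, against 0 and 0 in control, at least 44.5-fold higher (adjusted p = 0.00538). Hoxb13, known from the tail and the prostate, had 40 and 48 counts in 2KO, against 0 and 0 in control, at least 29.0-fold higher (adjusted p = 0.0124). Hoxc13, which is needed in hair, nails and the filiform papillae of the tongue, was the exception: it had 162 and 139 counts in 2KO, against 302 and 410 in control, and fell by 1.27 on the log2 scale (SE 0.345, adjusted p = 0.0361). That call was lost without control replicate 2 (adjusted p = 0.159), without 2KO replicate 2 (0.120) and on the FPKM scale. In control, Hoxc13 was at 9.52 ± 3.06 FPKM, while Hoxd13, Hoxa13 and Hoxb13 were each at 0.0204 FPKM or listed at 0.

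**Figure D5:**
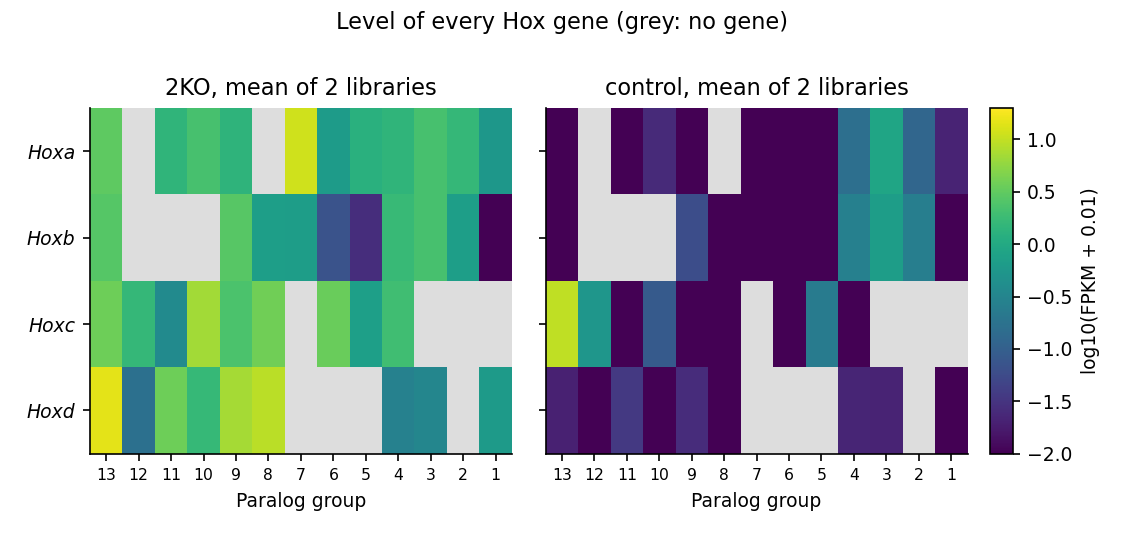
Mean deposited FPKM of every Hox gene, as log10(FPKM + 0.01) on the colour scale, in 2KO (left) and control (right), with clusters in rows and paralog groups 13 to 1 in columns, and grey where no gene exists. The Hoxd row is among the lowest in control and holds the highest gene, Hoxd13 at 14.8 FPKM, in 2KO, while Hoxc13 is brighter in control.

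Partners, regulators and reported targets of Hox proteins were read from lists, to be set against the 7.00% of all genes tested that were called higher and the 4.92% called lower. Among the 9 cofactor genes of the Pbx, Meis and Pknox families, whose proteins bind DNA together with Hox proteins, 2 were called higher, 0 lower and 7 were not called (median log2 fold change 0.32). Meis2 was at 308 and 276 CPM in 2KO, against 185 and 178 CPM in control (0.69, SE 0.148, adjusted p = 0.0135), a call lost without 2KO replicate 1 (0.0756) and on the FPKM scale. Pknox2 was at 8.34 and 8.01 CPM in 2KO, against 0.931 and 1.23 CPM in control (2.91, SE 0.573, adjusted p = 0.00882), a call lost on the FPKM scale.

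Of 17 genes that set Hox expression elsewhere in the embryo, 14 were tested, 2 were called higher, 2 lower and 10 were not called (median 0.14). Gdf11, a secreted factor that shifts the expression of posterior Hox genes in the trunk, was at 57.4 and 63.7 CPM in 2KO, against 25.0 and 30.3 CPM in control (1.13, SE 0.205, adjusted p = 0.00599). Aldh1a2, the enzyme that makes retinoic acid, an inducer of 3′ Hox genes, was at 25.5 and 24.6 CPM in 2KO, against 0.392 and 2.52 CPM in control (4.13, SE 0.606, adjusted p = 0.00167). Its log2 fold change depended on the control library, at 3.33 without control replicate 1 and 5.98 without control replicate 2. Cyp26a1, which breaks retinoic acid down, fell to 2.61 and 4.40 CPM in 2KO, against 11.3 and 30.6 CPM in control (-2.57, SE 0.491, adjusted p = 0.00759), a call lost on the log2(FPKM + 0.1) scale (0.0540), and its log2 fold change was -1.68 without control replicate 2. Dhrs3, which lowers retinaldehyde, fell to 20.8 and 15.6 CPM in 2KO, against 31.8 and 35.2 CPM in control (-0.88, SE 0.248, adjusted p = 0.0416), and lost the call with upper-quartile scaling, without control replicate 2 and without 2KO replicate 2. Other tested genes of the pathway in the list were not called, and they moved in both directions. Cyp26b1 was at 11.7 and 11.6 CPM in 2KO, against 7.65 and 4.34 CPM in control (adjusted p = 0.156). Cyp26c1 was at 1.53 and 2.97 CPM in 2KO, against 4.41 and 3.93 CPM in control (adjusted p = 0.430). The receptor gene Rara was at 204 and 224 CPM in 2KO, against 160 and 167 CPM in control (adjusted p = 0.117). Rarb, another receptor gene, was at 11.2 and 8.06 CPM in 2KO, against 6.42 and 14.4 CPM in control (adjusted p = 0.902). Retinoic acid itself was not measured. Cdx2 and Cdx4, which switch on Hox genes in the trunk, had 0 counts in all 4 libraries.

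Of 9 genes reported downstream of 5′ Hox genes in the mouse limb, 7 were tested, 1 was called higher, 1 lower and 5 were not called (median 0.31). Bmp7 was at 121 and 154 CPM in 2KO, against 49.1 and 52.2 CPM in control (1.44, SE 0.182, adjusted p = 0.000681). Bmp2 fell to 52.4 and 60.5 CPM in 2KO, against 133 and 120 CPM in control (-1.16, SE 0.173, adjusted p = 0.00181). Both encode secreted bone morphogenetic proteins, and they moved in opposite directions. With 7 genes tested, 1 call in a direction is little to set against the share over all genes. Shh, the signal that 5′ Hoxd genes maintain in the limb bud, was at 15.1 and 20.1 CPM in 2KO, against 12.2 and 9.39 CPM in control, and was not called (adjusted p = 0.167).

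The tested genes without a Hox name whose values were most like those of Hoxd13 were found by the Euclidean distance of log2(CPM + 0.1) over the 4 libraries. They were Zic1, a transcription factor of the neural tube (distance 0.893), C130021I20Rik (1.10), Mira (1.57), a transcript of the Hoxa cluster, Nrn1 (1.92) and Trank1 (2.21). Mira lies at chr6:52214491-52215288 in RefSeq (GRCm38.p6), within the annotated span of Hoxa7, so its reads may be shared with that gene. Zic1 had 506 and 776 counts in 2KO, against 0 and 0 in control, where Hoxd13 had 559 and 756 counts in 2KO, against 1 and 1 in control. To the summed Hoxd level the nearest were Trank1 (1.89), Runx3, a transcription factor of the Runt family (3.03), Zic1 (3.14), Elfn1 (3.19) and the potassium channel gene Kcna1 (3.35). With 4 libraries in 2 groups, the distance rests on few points.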

How the data were processed

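Each deposited table gives whole-number read counts of genes, and the authors also deposited FPKM values. Per the labels' protocols, 15 ng of RNA was amplified and sequenced as 100-nucleotide single reads. The build was mm10 and the tools were DESeq2 1.6.3, HTSeq 0.6.1, Cufflinks 2.2.1 and TopHat2 2.0.13, per the submitters' processing notes. The role of each tool, the gene models and the strand handling are not given.

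The main test was that of edgeR 4.0.16 under R 4.3.3 (TMM, filterByExpr, quasi-likelihood test of genotype, two-sided, Benjamini-Hochberg over the 15336 genes tested, threshold 0.05; biological coefficient of variation 0.313). Alternatives used DESeq2 1.42.0, limma 3.58.1 (voom on counts, trend on log2 FPKM), other scalings and filters, a replicate block and each library left out. The edgeR steps were tested on simulated data, with changes planted in genes averaging 1 CPM or more. The planted changes were far smaller than those of the Hoxd genes. The simulation therefore does not cover calls of genes that are nearly silent in control. A fitted fold change is not given for genes of 0 to 3 control counts; a lower bound against 3 counts over the group, or the raw ratio with its interval, replaces it.

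The members, lists and tests were chosen with earlier results of these data known. Text names all 9 Hoxd genes, Ring1, Rnf2, called list members by smallest p (at most 6 a list, from which examples are given), genes in or beside the cluster, and the 5 nearest profiles. Replicate numbers are not stated to pair libraries. Coordinates come from the GENCODE annotation and upstream sequences from RefSeq. All 9 genes had an upstream window.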

Additional observations from a re-analysis of the deposited data

How the results depend on the processing

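The same 5 Hoxd genes were called higher in 14 of the 15 alternatives, with 5 or 6 Hoxd genes called in each of the 14. In the main test all 7 tested Hoxd genes passed the filter through the 2KO libraries alone. Repeated calls on the same 4 libraries therefore carry no weight of their own. The exception was log2(FPKM + 1) without a filter on low values, where limma called 0 Hoxd genes, 0 other Hox genes and 0 genes higher or lower of 18210 tested, with 3764 genes and 8 of the 9 Hoxd genes at an unadjusted p under 0.05; the cause was not tested. Over all genes, 1073 were called higher and 754 lower in the main test. On the other settings 588 were called higher and 231 lower on log2(FPKM + 1), 472 and 175 on log2(FPKM + 0.1), and 1242 lower without a filter on counts. Leaving out each library gave 839 to 1643 higher, the most without control replicate 1, and 537 to 1104 lower. The summed Hoxd level was 83.1 CPM higher in 2KO, 37.8 higher in FPKM, a different unit, and 75.6 to 90.6 CPM higher with each library left out. Hoxd13 was 1.62 times Hoxd8 by FPKM and 2.47 times by counts per kb; the cause was not tested. Lnpk turned positive on log2(FPKM + 1), with or without a filter (0.0428), and on log2(FPKM + 0.1) (0.0517), and passed no threshold.

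Deviations from the group means of same-numbered libraries correlated at -0.0232. With 2 libraries a group, this single value cannot decide whether the libraries were paired. With the number as a replicate block, 5 Hoxd genes were called, and 1156 genes higher and 880 lower. With 2 libraries a group and at most 4 control counts a gene, the fold of each Hoxd gene is known only within wide limits.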
